A study of Mus musculus with 16 samples.

Results

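Smad proteins carry the signals of bone morphogenetic proteins (BMPs) and of transforming growth factor beta (TGF-beta) from receptors at the cell surface to the nucleus, and the Id genes are among the classic genes that BMP signaling turns on. Transcript abundance of 10 of these genes, Smad1 to Smad7 and Id1 to Id3, was followed in cortical bone of mice with and without hindlimb unloading (HLU). The members were taken by symbol. Each symbol occurs once among the 36829 features measured, and all 10 were among the 16973 features kept because their mean reached 0.5 RPKM. RPKM scales the reads on a gene by gene length and library size.

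The femurs came from 16 female C57Bl/6J mice of 11 weeks. In 8 of them the hind limbs had been unloaded for 7 days, with the tail held in a harness so that the hind feet bear no weight, and 8 controls walked normally. The ends of the bone were cut off and the marrow was flushed out with saline before RNA was extracted, so the samples are whole cortical bone with its osteocytes, surface cells, vessels and whatever marrow remained. Each mouse had its own library. Reads recovered on all features ranged from 6412015 (Control 2) to 18377624 (Control 1) in the control group (median 14225287), and from 6871686 (HLU 5) to 16911276 (HLU 6) in the HLU group (median 14034661).

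BMP receptors phosphorylate Smad1 and Smad5, and TGF-beta and activin receptors phosphorylate Smad2 and Smad3. Either kind of receptor-activated Smad then binds the common partner Smad4 and enters the nucleus, where the complex changes transcription. Smad6 and Smad7 are inhibitory Smads, which act at the receptors and are themselves induced by the pathway. Id1, Id2 and Id3 are helix-loop-helix proteins without a DNA-binding region, and they hold E proteins and related factors away from DNA. In bone, BMP signals drive osteoblast formation, while TGF-beta is stored in the matrix and freed during resorption.

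Id2 was the most abundant of the 10 genes, at 41.5 ± 7.10 RPKM over all mice (SD, n = 16), and its level was above that of Smad3, the next, in 16 of 16 mice. Smad3 stood at 12.3 ± 3.03 RPKM and exceeded Smad2 in 15 of 16 mice. Neighbors in the middle of the order were not separated by the spread between mice. Smad2 (7.71 ± 1.29 RPKM) exceeded Smad4 (7.48 ± 1.40 RPKM) in 8 of 16 mice, Smad4 exceeded Id3 (6.64 ± 3.84 RPKM) in 11, and Id3 exceeded Smad5 (5.01 ± 0.771 RPKM) in 7. Smad5 was above Id1 (4.58 ± 0.978 RPKM) in 10 mice, and Id1 above Smad1 (3.80 ± 0.901 RPKM) in 12. The inhibitory Smads formed the bottom of the order, with Smad7 at 1.26 ± 0.475 RPKM and Smad6 at 1.07 ± 0.387 RPKM (SD, n = 16 each). Smad1 exceeded Smad7 in 16 of 16 mice, and Smad7 exceeded Smad6 in 10.

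Levels of different genes depend on the lengths used for RPKM. The reads recovered here imply a length of 2094 bases for Id1, a gene that spans 1160 bases in the GENCODE M21 annotation, and of 16348 bases for Smad5, which has 7420 exon bases there. With the exon bases of that annotation in place of the authors' lengths, the mean level became 11.0 for Smad5, 11.5 for Smad4, 8.27 for Id1 and 4.61 for Smad2, on the scale of RPKM. Id2 (21.6) and Smad3 (12.7) were still highest, and Smad7 (2.16) and Smad6 (1.06) still lowest. The comparison of a gene between mice does not involve its length.

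None of the 10 genes differed between HLU and control mice by more than the spread between mice. With limma's unadjusted p below 0.05 and a 1.2-fold change required, 0 of 10 members were called, where 996 of all 16973 features (5.87%) were called, 188 of them higher (1.11%) and 808 lower (4.76%) in HLU mice. At an adjusted p under 0.1 and the same fold, 0 members and 0 of all features (0%) were called by limma, against 1049 features whose unadjusted limma p alone was below 0.05. The lowest limma adjusted p was 0.744 among the members and 0.256 among all features. The log2 fold change was above 0 for 4 members and below 0 for 6, and its median was -0.02, beside -0.10 for all features. That division depends on scaling: with median-of-ratios rescaling, quantile normalization or voom on recovered reads, 8 members were above 0 and 2, Id1 and Id3, below.

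The background count rests on scaling and on single mice. Quantile normalization moved the median log2 fold change of all features by 0.10 to 0.00 and gave 460 higher and 364 lower features (55.8% higher), and median-of-ratios rescaling gave 381 and 395 (49.1% higher), against 18.9% higher in the values as deposited. The 996 features became 649 without Control 6, 659 without Control 7, 629 without HLU 1, 588 without HLU 7 and 1748 without HLU 2, and 2837 with erythroid and granulocyte marker scores as covariates.

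**Figure D1:**
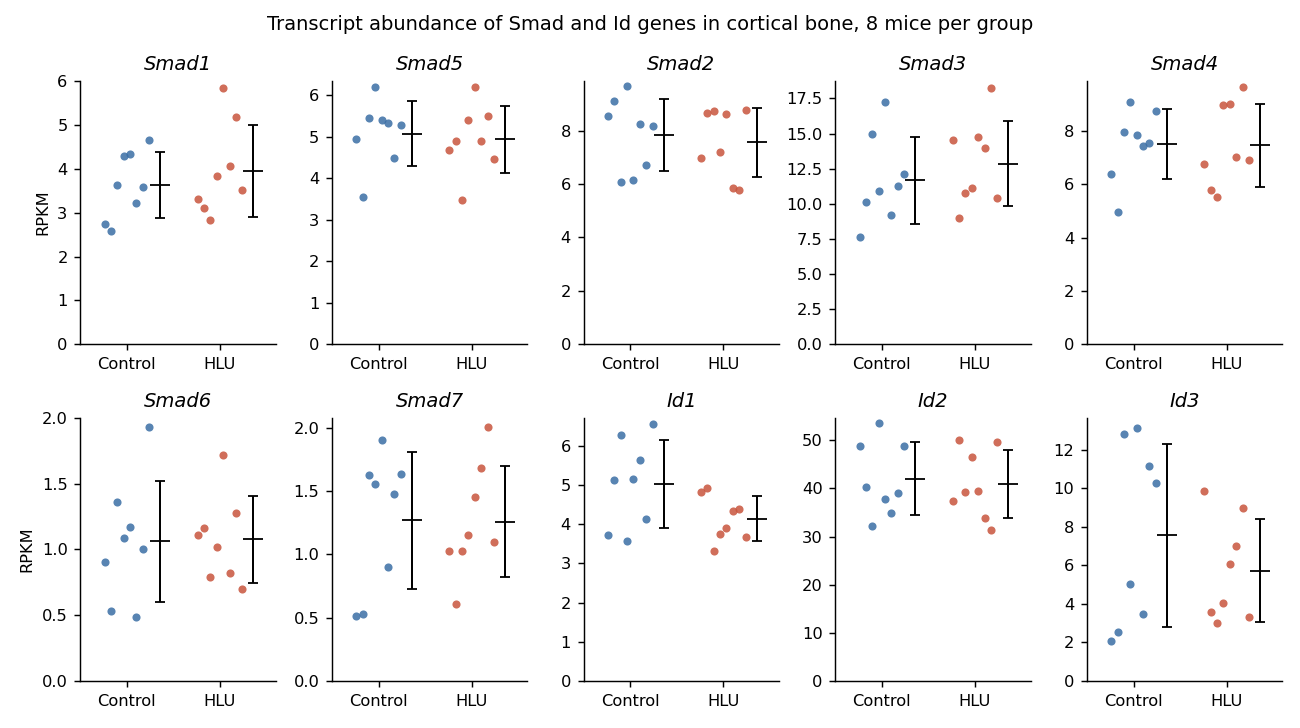
Transcript abundance (RPKM, linear axes from 0) of the 10 genes in each of 8 control mice (blue) and 8 HLU mice (red), placed by mouse number from left to right, with mean ± SD as black bars. The groups overlapped in all 10 genes. Id3 had the largest ratio of its highest to its lowest mouse, at 6.3 (2.08 to 13.1 RPKM).

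Among the BMP-activated Smads, Smad1 ranged from 2.59 to 4.67 RPKM in the control group (median 3.61) and from 2.83 to 5.84 RPKM in the HLU group (median 3.67). HLU 5 and HLU 7 lay above all control mice, and the other 6 HLU mice lay within the control range. The log2 fold change of Smad1 was 0.11 (SE 0.17, limma adjusted p = 0.869, exact permutation p = 0.513), and its 95% interval ran from -0.24 to 0.46. That value became 0.20 with median-of-ratios rescaling and 0.21 with quantile normalization, past neither call. Smad5 ranged from 3.55 RPKM in Control 2, with a median of 5.31, to 6.197 RPKM in Control 4, and between 3.48 and 6.21 RPKM (median 4.89) after HLU, nearly the same range. For Smad5 the log2 fold change was -0.04 (SE 0.13, exact permutation p = 0.745). Smad1 lies on the minus strand of chr8:79338395-79399518 and Smad5 on the plus strand of chr13:56703010-56742377 (GRCm38, GENCODE M21), where 3 short miscellaneous RNA genes share the strand and interval of Smad5.

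The TGF-beta-activated Smads went different ways in their values, neither beyond the spread. Smad3 ranged from 7.66 RPKM in Control 1 to 17.3 RPKM in Control 5, with a control median of 11.1, and from 9.01 RPKM in HLU 2 to 18.2 RPKM in HLU 7, with an HLU median of 12.5. The log2 fold change of Smad3 was 0.15 (SE 0.17, limma adjusted p = 0.832, exact permutation p = 0.420), with 5 of 8 HLU mice above the control median. That value became 0.24 with median-of-ratios rescaling and 0.27 with quantile normalization, past neither call. Smad2 ranged from 6.09 to 9.66 RPKM in the control group (median 8.21) and from 5.77 to 8.75 RPKM in the HLU group (median 7.91), with a log2 fold change of -0.05 (SE 0.13, exact permutation p = 0.705). That sign turned to 0.04 and 0.07 with median-of-ratios rescaling and quantile normalization. With erythroid and granulocyte scores as covariates the value for Smad2 was -0.17, past neither call. Within a mouse the ratio of Smad3 to Smad2 spread from 0.895 to 2.80 in control mice (median 1.31) and from 1.04 to 3.15 in HLU mice (median 1.63). Smad3 lies at chr9:63646767-63757994 on the minus strand and Smad2 at chr18:76241580-76310963 on the plus strand.

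Smad4, the common partner, had 4.98 to 9.08 RPKM (median 7.69) in control mice and 5.52 to 9.64 RPKM (median 6.97) after unloading. The log2 fold change of Smad4 was -0.01 (SE 0.15, exact permutation p = 0.924), and it became 0.08 and 0.10 with the other scalings. The inhibitory Smad6 had 0.490 to 1.93 RPKM in control and 0.702 to 1.72 RPKM in HLU mice, from 12 to 71 reads per mouse, so counting error adds to its spread. The inhibitory Smad7 had 0.512 to 1.90 RPKM in control and 0.606 to 2.01 RPKM in HLU mice, from 29 to 278 reads. Their log2 fold changes were 0.08 (SE 0.25) and 0.05 (SE 0.29), with exact permutation p of 0.764 and 0.884, and the value for Smad7 became 0.36 with erythroid and granulocyte scores as covariates, past neither call. The 95% interval for Smad7 reached from -0.57 to 0.66, so the data do not exclude changes within that range. Smad4 and Smad7 lie at chr18:73639009-73703780 and chr18:75367529-75395935, and a processed pseudogene overlaps Smad4 on the opposite strand. Whether the authors' counting used strand is not given in the sources used here.

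In the values as deposited, Id1 came closest to a difference. It ranged from 3.57 to 6.55 RPKM in the control group (median 5.15) and from 3.31 to 4.91 RPKM in the HLU group (median 4.12). All 8 HLU mice lay below the control median, but 7 of them stayed above the lowest control mouse, so the groups overlapped. The log2 fold change was -0.25 (SE 0.14, limma adjusted p = 0.744, exact permutation p = 0.0810), or -0.15 relative to the median of all features. Id1 passed the unadjusted call of limma, though not the adjusted one, without Control 1 (log2 fold change -0.31) and without Control 4 (-0.32), the control mice with the lowest Id1 values. The log2 fold change of Id1 was smaller with median-of-ratios rescaling (-0.163), quantile normalization (-0.155) and voom on recovered reads (-0.161). Under these scalings Smad3 had a lower unadjusted limma p than Id1. With marker scores as covariates Smad7, Smad3 and Smad2 did.

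Id2 showed no such pattern, with 32.2 to 53.6 RPKM in control mice (median 39.7) and 31.4 to 49.98 RPKM after unloading (median 39.3). For Id2 the log2 fold change was -0.03 (SE 0.13, exact permutation p = 0.786), and 0.06 and 0.10 with the other scalings. On the log2 scale Id3 was the most variable of the 10 genes. It ranged from 2.08 RPKM in Control 1 to 13.1 RPKM in Control 5, with a median of 7.64, and from 3.00 RPKM in HLU 3 to 9.83 RPKM in HLU 1, with a median of 5.06. Control mice formed a low and a high end, with 10.3 RPKM or more in Control 3, 5, 7 and 8 and 5.03 RPKM or less in the other 4. The SD of its log2 values within groups was 0.89, larger than that of 87.2% of features, and its log2 fold change of -0.21 (SE 0.41, limma adjusted p = 0.900, exact permutation p = 0.633) was far smaller than that spread. With erythroid and granulocyte scores as covariates its sign turned, to 0.35, without passing either call. Id1, Id2 and Id3 lie at chr2:152736251-152737410 (plus strand), chr12:25093799-25097140 (minus strand) and chr4:136143497-136145755 (plus strand).

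**Figure D2:**
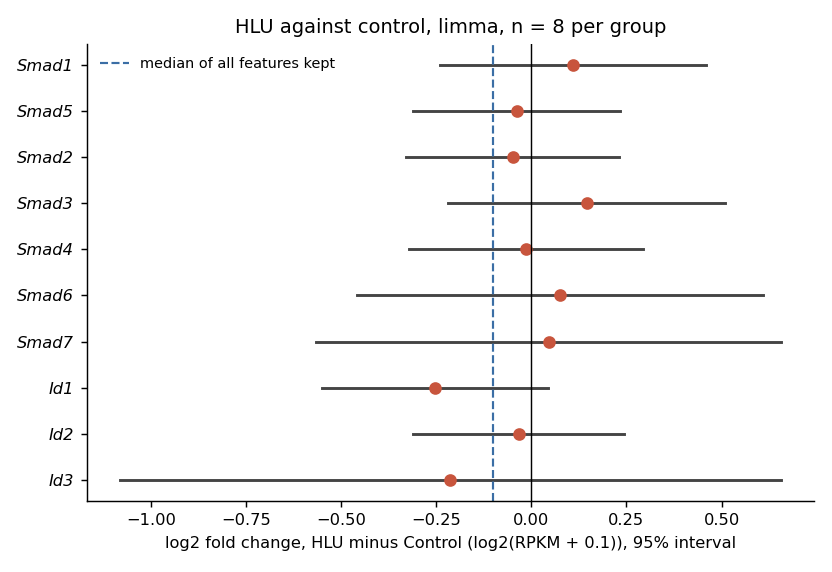
Log2 fold change of each gene, HLU minus control (points, with 95% intervals from limma as lines, n = 8 mice per group), and the median of all 16973 features (dashed line, -0.10). The 10 intervals all include 0, and that of Id1, from -0.55 to 0.04, does so by the smallest margin.

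The rest of the pathway was read from 8 lists of genes, of which 77 passed the filter. In limma at an unadjusted p under 0.05 and 1.2-fold, 3 were higher and 1 lower in HLU mice (5.19%, beside 5.87% of all features), and 0 passed the adjusted threshold. The 4 called genes all belong to the list of Smad regulators, the longest of the 8, with 22 genes tested. Whether calls gather in that list was not tested. Zfyve9, which presents Smad2 and Smad3 to the TGF-beta receptor, had 5.55 ± 1.55 RPKM in control and 8.56 ± 2.94 RPKM in unloaded mice (SD, n = 8 each, log2 fold change 0.58, SE 0.23, limma adjusted p = 0.744, exact permutation p = 0.0368). Tob1, an antiproliferative protein that restrains BMP Smads in osteoblasts, had 27.9 ± 8.33 and 37.8 ± 9.87 RPKM (SD, n = 8 each, log2 fold change 0.44, SE 0.19, exact permutation p = 0.0455). Nedd4l, a ubiquitin ligase for activated Smad2 and Smad3, had 1.65 ± 0.238 and 2.08 ± 0.341 RPKM (SD, n = 8 each, log2 fold change 0.31, SE 0.13, exact permutation p = 0.0129). Ep300, a histone acetyltransferase that Smads recruit, had 9.74 ± 1.34 and 8.14 ± 1.57 RPKM (SD, n = 8 each, log2 fold change -0.26, SE 0.12, exact permutation p = 0.0343). Each of these 4 calls was lost when some single mouse was left out: Zfyve9 was called in 23 of 27 alternative settings, Nedd4l in 20 of 26, Tob1 in 16 of 27 and Ep300 in 10 of 27. The call of Ep300 was also lost with median-of-ratios rescaling (log2 fold change -0.17), quantile normalization (-0.15) and the replicate number as a block (-0.26, unchanged). With marker scores as covariates Zfyve9 came to 0.30, still called, while Tob1 (0.26) and Ep300 (-0.24) were no longer called. Usp15, a deubiquitinase and the most abundant gene of that list, had a log2 fold change of -0.19 (SE 0.16, exact permutation p = 0.230).

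In the other 7 lists no gene was called, where 5.87% of all features were. Smad9, the third BMP-activated Smad, had 0.900 ± 0.316 RPKM in control and 1.05 ± 0.248 RPKM in unloaded mice (SD, n = 8 each, log2 fold change 0.24, exact permutation p = 0.269), and Id4 had 5.19 ± 1.68 and 5.79 ± 1.29 RPKM (SD, n = 8 each, log2 fold change 0.18, exact permutation p = 0.357). Among 14 ligands the median log2 fold change was 0.13, with the lowest p for Tgfb2 (log2 fold change 0.54, SE 0.27, exact permutation p = 0.0760) and the highest level for Tgfb3 (0.15, exact permutation p = 0.651). Among 9 receptors the median was 0.11. The BMP type I receptor Bmpr1a had 6.84 ± 1.88 and 9.70 ± 3.33 RPKM (SD, n = 8 each, log2 fold change 0.47, SE 0.22, exact permutation p = 0.0651), and the most abundant receptor, Tgfbr2, differed by 0.11 on the log2 scale (exact permutation p = 0.359). Of 8 extracellular antagonists, with a median of 0.18, Nog had the lowest p (0.45, exact permutation p = 0.108) and Twsg1 the highest level (0.22, exact permutation p = 0.170).

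The lists of partners of Id proteins and of other BMP and TGF-beta targets held no called gene either. With lists this short, the absence of calls says little about the targets of the pathway. Over 4 genes of the list of E proteins and other partners of Id proteins the median log2 fold change was -0.08, with -0.39 for Tcf3 (exact permutation p = 0.149) and -0.08 for the most abundant, Tcf12 (exact permutation p = 0.546). Over 8 other BMP targets it was 0.01, with 0.32 for the RANKL decoy receptor Tnfrsf11b (exact permutation p = 0.288) and -0.06 for the osteoblast factor Sp7 (exact permutation p = 0.810). Over 10 other TGF-beta targets it was -0.10, equal to that of all features, with 0.42 for Bhlhe40 (exact permutation p = 0.0819) and -0.13 for Col1a1 (exact permutation p = 0.688).

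Covariation between mice was found for some pairs of the Smad and Id genes. Log2 values were centred on the mean of each group, so that no group difference enters, and the 45 pairs of members were compared over the 16 mice. Of these, 20 pairs had a Pearson correlation with a permutation p, adjusted over the 45, under 0.05, and 19 of the 20 also passed by Spearman's rho. The 20 pairs (44.4%) had an absolute r of at least 0.562, which 24.5% of features reached with a member on average, so such values were not rare in these mice. In 16 pairs the correlation was positive and in 4 it was negative, and in 20 of 20 it had the same sign in control and in HLU mice taken alone. Pairs picked for a high r over these same mice will mostly share their sign, so that count is no separate check. The labels and methods tie no mouse to a lane or day, so no values within batches could be given.

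The BMP-activated Smads and Smad4 formed a set. Smad1 and Smad4 correlated with r = 0.884 (permutation p = 1e-05, the smallest that could be reached, adjusted p = 0.00045) and rho = 0.888 (permutation p = 3e-05), and r was 0.868 without Control 2 and HLU 5, the mice farthest from the median of Smad1. As high an r was reached by 0.141% of all features with Smad1 and by 0.189% with Smad4. Smad5 and Smad4 correlated with r = 0.855 (permutation p = 6e-05, adjusted p = 0.0009) and rho = 0.862 (permutation p = 0.00014), with r = 0.714 without Control 2 and HLU 3. Smad1 and Smad5 correlated with r = 0.776 (permutation p = 0.00039, adjusted p = 0.00253) and rho = 0.750 (permutation p = 0.00192). Without Control 2 and HLU 5 that r was 0.633 (permutation p = 0.0241, adjusted p = 0.0834), positive still but short of the adjusted threshold with 14 mice. Control 2, the smallest library, was lowest of the control mice in Smad1, Smad4 and Smad5.

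The second set joined TGF-beta-activated Smad3 with Id3 and Smad7. Smad3 and Id3 correlated with r = 0.863 (permutation p = 3e-05, adjusted p = 0.000675) and rho = 0.865 (permutation p = 2e-05), and r was 0.854 without Control 5 and HLU 7, which had the highest Smad3. Smad3 and the inhibitory Smad7 correlated with r = 0.820 (permutation p = 0.00024, adjusted p = 0.00216) and rho = 0.791 (permutation p = 0.00054), with 0.769 without the same mice. Smad7 also correlated with Smad1, at r = 0.822 (permutation p = 0.00011, adjusted p = 0.00124) and rho = 0.868 (permutation p = 7e-05), and 0.858 without Control 2 and HLU 5. Smad7 and Smad4 correlated too, with r = 0.77 (permutation p = 0.00041, adjusted p = 0.00253) and rho = 0.727 (permutation p = 0.00149), and 0.734 without Control 2 and HLU 3. The sets were not separate, since Smad1 and Smad3 correlated with r = 0.695 (permutation p = 0.00424, adjusted p = 0.0147) and rho = 0.721 (permutation p = 0.00362), and 0.732 without Control 2 and HLU 5. For Id3, whose log2 values spread most, 1.83% of all features correlated at least as highly with it as Smad3 did, so a high r with Id3 was not rare.

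**Figure D3:**
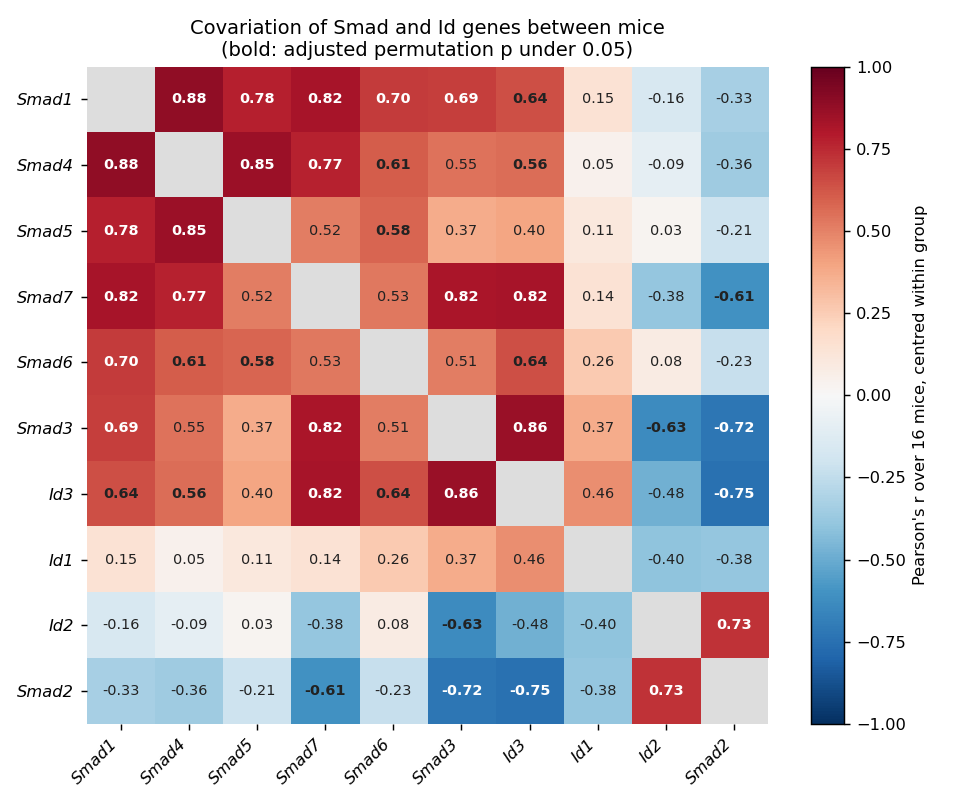
Pearson's r of each pair of genes over 16 mice, from log2(RPKM + 0.1) centred within control and HLU groups, with red for positive and blue for negative values and bold numbers for an adjusted permutation p under 0.05. Smad1, Smad4, Smad5, Smad6, Smad7, Smad3 and Id3 form a red block, Id2 and Smad2 pair with each other at 0.73, and Id1 has no bold value.

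The 4 negative calls involved Smad2, with Id3, Smad3 and Smad7, and Id2, with Smad3. Smad2 and Id3 correlated with r = -0.75 (permutation p = 0.00215, adjusted p = 0.0108) and rho = -0.709 (permutation p = 0.00311), and r was -0.755 (permutation p = 0.00909, adjusted p = 0.0511) without HLU 6 and HLU 7. Smad2 and Smad3, which serve the same receptors, correlated negatively, with r = -0.721 (permutation p = 0.00313, adjusted p = 0.0124) and rho = -0.635 (permutation p = 0.0132), and -0.656 without the same mice (permutation p = 0.0192, adjusted p = 0.0784). Smad2 and Id2 correlated positively, with r = 0.726 (permutation p = 0.00331, adjusted p = 0.0124) and rho = 0.794 (permutation p = 0.00071), and 0.601 without those mice (permutation p = 0.0445, adjusted p = 0.143). These 3 pairs missed the adjusted threshold without HLU 6 and HLU 7, in which Smad2 was lowest, at 5.87 and 5.77 RPKM, while r kept its sign and for Smad2 and Id3 did not weaken. Of all features, 13.5% correlated at least as highly with Smad2 as Id2 did, and 6.08% with Id2 as Smad2 did. For Smad2 and Smad3, 3.93% of features were at least as negative with Smad2 and 12.5% with Smad3, and for Smad2 and Id3 these shares were 2.75% with Smad2 and 6.90% with Id3. Of the 20 called pairs, 7 kept an adjusted p under 0.05 without the pair of mice farthest from the median, 14 kept a permutation p under 0.05, and 20 kept their sign.

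Id1 was in none of the called pairs. Its highest correlation with another member was that with Id3, at r = 0.462 (permutation p = 0.121) and rho = 0.421 (permutation p = 0.157), and with Smad1, Smad4 and Smad5 its r was 0.148, 0.0452 and 0.108. Id1 also had the lowest share of features correlated with it above 0.6, at 1.02%, against 4.81% to 21.9% for the other 9 members. Below -0.6 the share was 1.025% for Id1, 0.324% for Smad6 and 2.65% to 19.5% for the remaining members. As the classic BMP target Id1 did not follow the abundance of Smad1, Smad5 or Smad4 in these mice, at the level of RNA and with 64 to 200 reads per mouse.

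**Figure D4:**
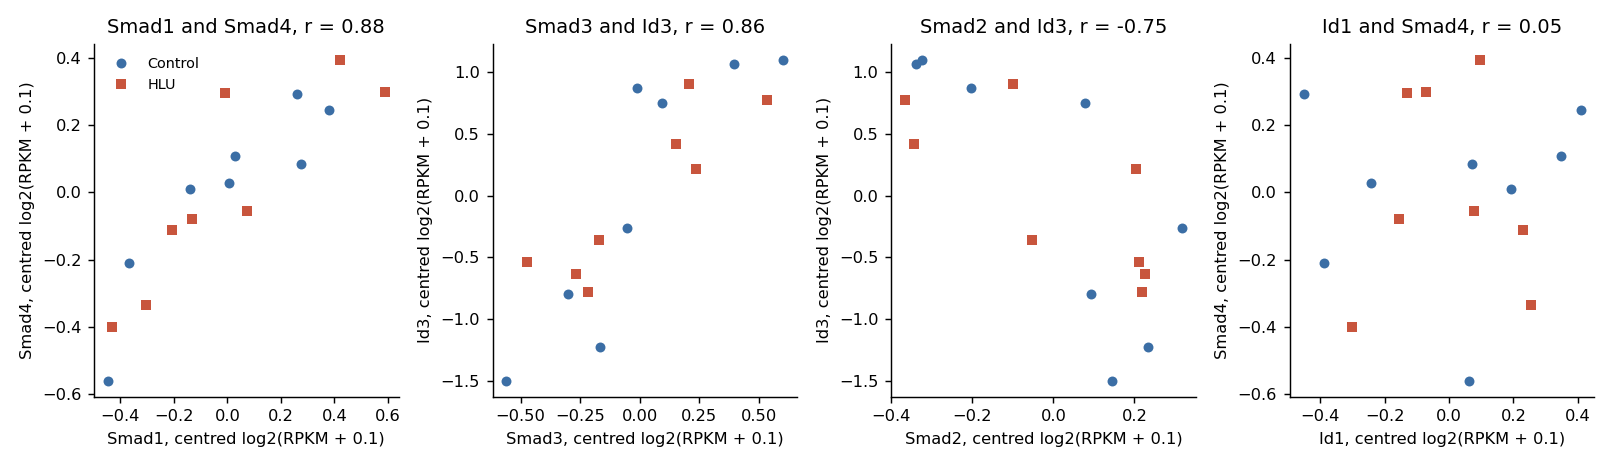
Centred log2(RPKM + 0.1) of 4 pairs of genes in 8 control mice (blue circles) and 8 HLU mice (red squares), with Pearson's r over the 16 mice above each panel. Smad4 followed Smad1 and Id3 followed Smad3 in both groups, Id3 was low where Smad2 was high, and Smad4 was unrelated to Id1 (r = 0.05).

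The bases around the transcription start are shown for the 6 genes with an entry used here (Smad1, Smad5, Smad3, Smad6, Id2 and Id3). They run from 250 bases before to 50 after a start, as given by RefSeq for GRCm38.p6. Whether these bases bear on the covariation above was not tested. Capitals mark GTCT, the core letters that Smad3 and Smad4 bind, and GGCGCC, a GC-rich form bound by BMP-activated Smads, each on either strand, so that GTCT can read as AGAC. The windows are chr8:79399379-79399678 (minus strand) for Smad1, chr13:56702760-56703059 (plus strand, the first of 3 starts) for Smad5, chr9:63757945-63758244 (minus strand) for Smad3, chr9:64022010-64022309 (minus strand) for Smad6, chr12:25096043-25096342 (minus strand) for Id2 and chr4:136143572-136143871 (plus strand) for Id3.
Smad1: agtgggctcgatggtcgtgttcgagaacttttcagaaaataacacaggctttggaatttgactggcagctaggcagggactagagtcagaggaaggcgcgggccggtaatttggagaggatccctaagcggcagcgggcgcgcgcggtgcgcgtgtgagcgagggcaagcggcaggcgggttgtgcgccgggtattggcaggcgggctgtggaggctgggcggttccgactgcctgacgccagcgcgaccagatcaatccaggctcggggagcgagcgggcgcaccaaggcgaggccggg
Smad5: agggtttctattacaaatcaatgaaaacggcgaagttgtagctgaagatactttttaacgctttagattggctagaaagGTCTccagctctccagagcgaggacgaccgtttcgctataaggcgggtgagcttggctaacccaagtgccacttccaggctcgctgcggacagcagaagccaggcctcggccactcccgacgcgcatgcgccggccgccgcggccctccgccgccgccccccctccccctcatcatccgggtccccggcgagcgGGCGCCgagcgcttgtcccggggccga
Smad3: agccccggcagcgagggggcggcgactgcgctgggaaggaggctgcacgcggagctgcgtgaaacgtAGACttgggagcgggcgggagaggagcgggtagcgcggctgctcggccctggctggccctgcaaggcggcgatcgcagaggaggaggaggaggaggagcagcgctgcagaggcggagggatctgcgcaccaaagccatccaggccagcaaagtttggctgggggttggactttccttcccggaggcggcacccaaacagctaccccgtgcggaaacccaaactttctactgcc
Smad6: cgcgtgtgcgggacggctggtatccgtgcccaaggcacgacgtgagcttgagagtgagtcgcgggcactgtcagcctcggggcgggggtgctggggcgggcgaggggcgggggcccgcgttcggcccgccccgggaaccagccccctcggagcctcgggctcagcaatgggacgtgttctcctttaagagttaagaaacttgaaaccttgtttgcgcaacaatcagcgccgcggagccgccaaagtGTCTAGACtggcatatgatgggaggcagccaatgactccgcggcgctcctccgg
Id2: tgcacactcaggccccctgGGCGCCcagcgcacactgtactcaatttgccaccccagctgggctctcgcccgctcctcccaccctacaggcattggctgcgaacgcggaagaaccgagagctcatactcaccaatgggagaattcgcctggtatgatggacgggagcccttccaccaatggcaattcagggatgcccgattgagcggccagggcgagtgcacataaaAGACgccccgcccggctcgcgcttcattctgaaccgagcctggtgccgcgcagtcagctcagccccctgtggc
Id3: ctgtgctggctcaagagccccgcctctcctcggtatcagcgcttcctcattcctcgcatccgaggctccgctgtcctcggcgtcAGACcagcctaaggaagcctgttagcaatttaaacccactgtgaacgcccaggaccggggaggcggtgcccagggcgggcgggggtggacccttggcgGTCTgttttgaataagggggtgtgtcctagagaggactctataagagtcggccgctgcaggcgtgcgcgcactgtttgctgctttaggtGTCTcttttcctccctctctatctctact

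In these windows GTCT occurs 3 times for Id3, 2 times for Smad6, once each for Smad5, Smad3 and Id2, and 0 times for Smad1, and 88% of 32851 promoters of the same length hold it. GGCGCC occurs in the windows of Smad5 and Id2 and in 11.9% of promoters. The third start of Smad5, not shown, has 2 GTCT, no GGCGCC and no CANNTG. The palindrome GTCTAGAC, which overlaps GTCT on both strands, occurs in the window of Smad6 and in 0.213% of promoters. CAGACA, which overlaps AGAC, occurs in none of the 6 windows and in 21% of promoters. The E-box CANNTG, the kind of site at which Id proteins act through E proteins, occurs in the windows of Smad5, Smad6 and Id2 and in 72.3% of promoters, and its special case CACGTG in none of the 6 and in 7.15%. The 6 windows have a GC content of 60% to 67.7%, above the median of 52.7% for all promoters. These are letter matches, with no measurement of binding in these samples.

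The mice also differed in their marker RNA of several cell types, and 8 of the 10 members, all but Id1 and Id2, were related to at least 1 marker score. In bulk RNA, fewer cells of a type and less RNA per cell cannot be told apart. A score for a cell type is the mean over its markers of log2(RPKM + 0.1), each centred on its own mean over the 16 mice. Of 50 relations between the 10 members and 5 scores, 19 had an adjusted permutation p under 0.05 by Pearson's r, 18 of these also by Spearman's rho. These 38% of relations reached an absolute r of 0.615, beside 19.9% for all features over the same scores, and 56.3% of features reached it with at least 1 of the 5. Score by score, 6 of 10 members reached it with the osteocyte score (14.4% of features), 3 with the osteoblast (10.2%), 5 with the endothelial (27.9%), 5 with the granulocyte (28.1%) and 0 with the erythroid score (19.1%).

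Granulocyte markers were high where Smad3, Smad4, Smad7 and Id3 were low. For Smad3 r was -0.74 (permutation p = 0.00037, adjusted p = 0.00419) and rho -0.741 (permutation p = 0.00238), for Smad4 r was -0.735 (permutation p = 0.00174, adjusted p = 0.00746) and rho -0.729 (permutation p = 0.00563). Smad2 moved the other way, with r = 0.691 (permutation p = 0.0033, adjusted p = 0.0118) and rho = 0.677 (permutation p = 0.00699). Without HLU 2 and HLU 7, farthest from the median score, r was -0.60 for Smad3, -0.64 for Smad4 and 0.615 for Smad2, with permutation p of 0.0134, 0.0167 and 0.0222 and adjusted p of 0.0516, 0.0564 and 0.0564, just short of the adjusted threshold with 14 mice. With all 16 mice, Smad1 (r = -0.60, adjusted permutation p = 0.052) and Smad5 (r = -0.53, adjusted permutation p = 0.0791) were also negative with this score, though not called. After median-of-ratios rescaling both were called, with r of -0.85 and -0.74 (adjusted permutation p = 0.0015 and 0.00572). So was Smad6, with r = -0.52 (adjusted permutation p = 0.047). The granulocyte list had 5 of 8 markers measured (S100a8, S100a9, Ltf, Ngp and Camp), while Mpo, Elane and Prtn3 were not analysed here. Their summed level ran from 17226 RPKM in Control 5 to 37154 RPKM in Control 1, with a median of 29511, and from 12162 RPKM in HLU 7 to 43709 RPKM in HLU 2, with a median of 24661, and S100a8 was the most abundant. Control 5 and HLU 7, with the lowest summed level of their groups, had the highest Smad3, and Control 1 and HLU 2, with the highest sum, had the lowest. By the score, Control 2 (0.40) stood above Control 1 (0.33), and its Smad3, at 10.1 RPKM, was not the lowest of the control mice.

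Endothelial markers were high where Smad3 and Id3 were high. With the endothelial score Smad3 had r = 0.888 (permutation p = 1e-05, the smallest that could be reached, adjusted p = 0.0005) and rho = 0.912 (permutation p = 1e-05), and 0.897 without Control 1 and HLU 5. Id3 had r = 0.856 (permutation p = 0.00015, adjusted p = 0.00375) and rho = 0.765 (permutation p = 0.00079), and 0.914 without the same mice. The endothelial list had 8 of 8 markers measured, most abundantly Pecam1, with a summed level from 64.2 to 91.9 RPKM in control mice (median 78.5) and from 68.6 to 105 RPKM in HLU mice (median 83.7). Smad1, Smad6 and Smad7 were also among the called relations with this score.

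Markers of the cells of bone itself were related to several members. The osteocyte score (6 of 6 markers, most abundantly Mepe, summed level 179 to 589 RPKM in control and 263 to 598 RPKM in HLU mice) was called with Smad7, with r = 0.809 (permutation p = 0.00055, adjusted p = 0.00419) and rho = 0.629 (permutation p = 0.0171), and to Smad4, with r = 0.769 (permutation p = 0.00045, adjusted p = 0.00419) and rho = 0.750 (permutation p = 0.00102). Leaving out Control 2 and HLU 2 gave 0.679 and 0.636, with permutation p of 0.0197 and 0.00411 and adjusted p of 0.0564 and 0.0294. Smad1, Smad5, Smad3 and Id3 were also called with the osteocyte score. The osteoblast score (6 of 6 markers, most abundantly Ibsp, summed level 621 to 1356 RPKM in control and 727 to 1859 RPKM in HLU mice) was called with Id3, with r = 0.819 (permutation p = 0.00036, adjusted p = 0.00419) and rho = 0.815 (permutation p = 0.00083), and 0.785 without Control 2 and HLU 1. Smad6 and Smad3 were the other members called with the osteoblast score. The erythroid score (6 of 8 markers, most abundantly Hbb-b1, summed level 2116 to 4966 RPKM in control and 985 to 2712 RPKM in HLU mice, with Epb42 and Ahsp not analysed here) was related to none of the 10 at the adjusted threshold in the values as deposited. After median-of-ratios rescaling it was, to Smad5 (r = -0.77, adjusted permutation p = 0.00389), Smad4 (r = -0.72, adjusted permutation p = 0.0157) and Smad1 (r = -0.61, adjusted permutation p = 0.0474). As deposited, r with this score in control and HLU mice taken alone was -0.30 and -0.63 for Smad5, 0.07 and -0.85 for Smad4, and 0.11 and -0.61 for Smad1. The difference between groups was not tested. The markers Col1a1 and Sp7 of the osteoblast list are also among the pathway targets above.

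**Figure D5:**
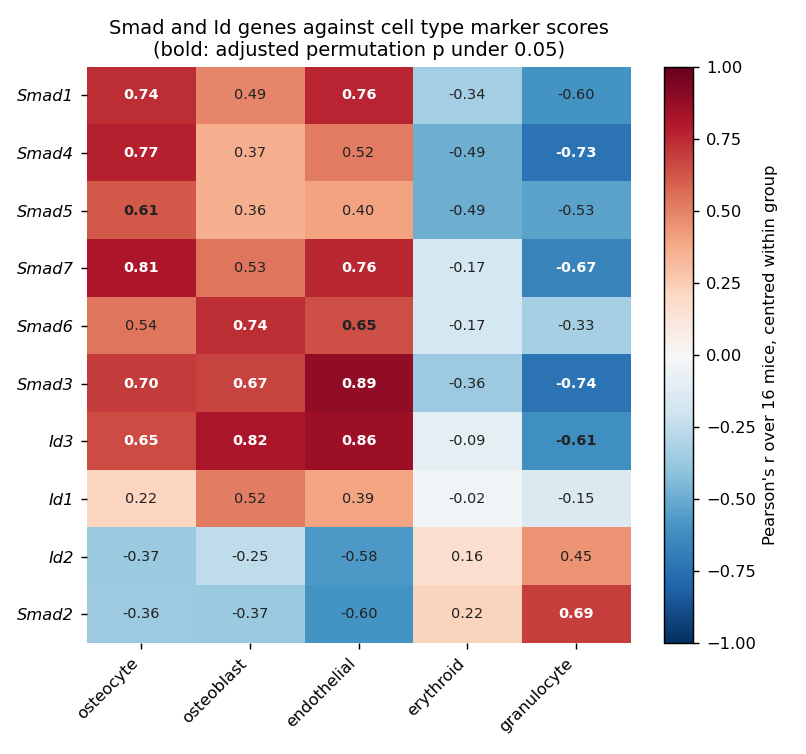
Pearson's r of each gene (rows) with 5 cell type marker scores (columns) over 16 mice, centred within groups, with bold numbers for an adjusted permutation p under 0.05. Smad3 and Id3 are red with the endothelial score (0.89 and 0.86) and blue with the granulocyte score (-0.74 and -0.61), and Smad2 has the opposite colors.

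What is linear in the erythroid and granulocyte scores was then removed. Of the 20 called pairs, 7 were then still called: Smad1 with Smad4 (r = 0.812), Smad5 (0.735), Smad6 (0.654) and Smad7 (0.794), Smad5 with Smad4 (0.854), and Id3 with Smad3 (0.72) and Smad6 (0.734). The negative pairs were weaker, with r of -0.18 for Smad2 and Id3 and -0.20 for Smad2 and Smad3, and Smad2 and Smad7 turned from -0.61 to 0.34, none of them past the adjusted threshold. Id3 with Smad6 was stronger than before (0.643). Apart from the 7 pairs still called, the positive pairs of the 20 with Smad3, Smad7 or Id3 were weaker and no longer called. Their r was 0.38 for Smad7 and Id3, 0.52 for Smad3 and Smad7, 0.42 for Smad1 and Smad3 and 0.13 for Smad4 and Id3, among others. The covariation of Smad1, Smad5 and Smad4 was thus nearly as strong with the erythroid and granulocyte scores removed as before. The osteocyte score, called with Smad1 (r = 0.738), Smad5 (0.615) and Smad4 (0.769), was not removed. What part residual marrow or the mix of bone cells had in these relations was not tested.

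The scores themselves did not separate the groups. Of 11 cell type scores the erythroid score had the lowest p, at 0.28 ± 0.43 in control and -0.28 ± 0.64 in unloaded mice (SD, n = 8 each, with an exact permutation p of 0.0640), then the osteocyte score, at -0.23 ± 0.53 and 0.23 ± 0.41 (SD, n = 8 each, with an exact permutation p of 0.0696). Both had an adjusted exact permutation p of 0.383 over the 11 scores. The granulocyte and endothelial scores, which moved with the Smad genes between mice, differed between groups by -0.10 (exact permutation p = 0.678) and 0.08 (exact permutation p = 0.483). The osteoblast score differed by -0.06, and the osteoclast, macrophage, B lymphocyte, megakaryocyte, adipocyte and chondrocyte scores by -0.51 to 0.30. No muscle marker was analysed here.

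Outside the members, the genes most like each of them between mice were picked as the highest r of all features, a description without a test. Id3 was followed by Ptms (r = 0.974), Htra3 (0.961) and Nbl1 (0.960), the last a secreted BMP antagonist. Smad3 was followed by the natriuretic peptide receptor Npr2 (0.954), the basement membrane collagen Col4a1 (0.952) and the actin-binding Tagln (0.948), and Smad7 by App (0.956), Ptpn14 (0.954) and Cry2 (0.952). Smad6 had the cell cycle gene Ccnd1 (0.90) and the related Smad9 (0.890) at the top, then Col13a1 (0.872).

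The BMP-activated Smads and Smad4 had other neighbors. Smad1 was most like Mon2 (0.944), Slc39a14 (0.934) and Dpysl3 (0.919), Smad5 like Mycbp2 (0.955), Hs2st1 (0.921) and Vezf1 (0.914), and Smad4 like Fam214a (0.950), Fbxl17 (0.948) and Sra1 (0.943). Smad2 was most like D10Wsu102e (0.949), the zinc transporter Slc30a5 (0.948) and Tram1 (0.947), a protein of the endoplasmic reticulum, and Id2 like Zfp263 (0.946), Mpzl3 (0.910) and 4930430F08Rik (0.891). Id1 had the weakest best matches, Gm16574 (0.813), the mast cell tryptase Tpsb2 (0.794) and the early response gene Ier3 (0.756).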

How the data were processed

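Cortical bone RNA of 8 control and 8 HLU mice was sequenced, one library per mouse, and mice were assigned to groups by the sample labels. The authors made TruSeq libraries, read them on a HiSeq with 8 libraries per lane, and deposited RPKM values for each mouse. The submitters' processing notes name TopHat2, the mouse build mm9 and DESeq2, while the counting tool, annotation and gene lengths are not given in the sources used here. GENCODE M21 on GRCm38 was used only for positions, exon lengths and overlaps, and no coordinate was converted. Of the features, 3887 carry the symbol Rnf135, and they were tested as separate features.

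Features whose mean reached 0.5 RPKM were kept. Group differences came from limma 3.58.1 (R 4.3.3), fitted to log2(RPKM + 0.1) with a variance trend, unweighted mice and Benjamini-Hochberg adjustment over all 16973 features, so a fold change is on that scale and is understated for low genes. A test on counts is not the main test for RPKM. For single genes the difference was compared, in both directions, with that of every split of the mice into 8 and 8 (exact permutation, smallest p 0.000155). Correlations between mice used two-sided tests with 100000 permutations within groups, adjusted over 45 pairs or 50 relations to scores (Python 3.11.15, numpy 2.4.6, scipy 1.17.1, pandas 2.3.3, matplotlib 3.10.9). Reads were recovered from the RPKM values, within 0.02 reads of a whole number, for 16973 of 16973 features kept. For a gene of 1 kb, 3 reads equal 0.140 to 0.424 RPKM in these libraries, a limit of counting error only. The limma and read recovery steps were tested on simulated data. Of 200 features with a simulated 2-fold change, 121 were recovered, 0 with the wrong sign, and 8 calls were false.

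The genes named are the 10 members, Smad9 and Id4, the called genes of each pathway list or else the gene with the lowest p, the most abundant gene of each list, and the 3 features with a unique symbol most like each member. Of the pathway lists, Mstn, Acvr1b, Wwp1 and Tob2 were not analysed here. The members and lists were chosen with earlier results of these data known. The alternatives were other pseudocounts, filters and scalings, the replicate number as a block, no variance trend, voom on recovered reads, marker scores as covariates and each mouse left out.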

Additional observations from a re-analysis of the deposited data

How the results depend on the processing

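Of the 10 members, 0 passed an adjusted p of 0.1 under any alternative tried, and Id1 passed the unadjusted call in 2 of 27. Smad3 and Id1 kept their sign in 27 of 27 alternatives. With a mean of at least 2 RPKM, Smad6, Smad7 and Nedd4l had no value. Median-of-ratios rescaling, quantile normalization and voom on recovered reads turned the log2 fold changes of Smad5 (0.0524, 0.0699, 0.0071), Smad2 (0.0429, 0.0697, 0.0127), Smad4 (0.0785, 0.103, 0.0223) and Id2 (0.0598, 0.0959, 0.0298), and the marker scores as covariates turned that of Id3 (0.349). Without the smallest library of each group (Control 2 and HLU 5), an alternative chosen after seeing the data, Smad1 (-0.0384), Smad6 (-0.132) and Smad7 (-0.133) turned. With single mice left out, values ran from -0.109 to 0.0289 for Smad5, -0.0975 to 0.0033 for Smad2, -0.0937 to 0.0436 for Smad4, -0.0495 to 0.205 for Smad6, -0.102 to 0.171 for Smad7 and -0.0847 to 0.0198 for Id2. Without a change of sign they ran from 0.0255 to 0.171 for Smad1, 0.0651 to 0.231 for Smad3, -0.319 to -0.196 for Id1 and -0.428 to -0.0563 for Id3. The cause of these changes was not tested.

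The 996 features past the unadjusted call became 2837 with the marker scores as covariates and 588 to 1748 with single mice left out. The 0 past the adjusted call became 1 without a filter, 1 without the variance trend, and 0 to 1 with single mice left out. The 4 called pathway genes kept their sign in all alternatives run for them. Mice of the same number did not deviate together: r ran from -0.17 to 0.51, and only number 4 matched best with its own. With the replicate number as a block, 1039 features passed the unadjusted call and 0 the adjusted one.

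The 20 covarying pairs became 12 with quantile normalization, 7 with the 2 scores regressed out, 11 without the smallest library of each group, and 7 without the 2 mice farthest from the median. With 8 mice, 4 pairs were called in control mice and 0 in HLU mice, where fewer samples limit the test, so a difference between groups is not shown. The 19 relations to marker scores became 12 without the 2 mice farthest from the median of the score and 27 after rescaling. Depth limited Smad6 most, with 12 reads in the shallowest value.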
